A study of Mus musculus with 91 samples.

Results

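The miR-34 family was followed through 5 mature miRNAs, namely mmu-miR-34a-5p, mmu-miR-34b-5p, mmu-miR-34b-3p, mmu-miR-34c-5p and mmu-miR-34c-3p. They were picked by name, with earlier results of these data known, from the 1504 mature miRNAs of the main count table. The family is best known as a direct transcriptional target of p53. Its 5p strands share a seed, the short stretch near the 5′ end that pairs with target mRNAs, and repress cell cycle genes such as cyclin-dependent kinases and the anti-apoptotic gene Bcl2. Mir34a stands alone in the genome, Mir34b and Mir34c are made from 1 shared primary transcript, and promoter methylation of both loci is a well described form of silencing in tumours. The series asked what loss of the DNA methyltransferases does to miRNAs of the early mouse embryo.

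Small RNA was profiled with CAS-seq, a small RNA sequencing protocol with a Cas9 and guide RNA treatment of the library, made for very little RNA. Natural embryos came from B6D2F1 females (C57BL/6J mother, DBA2 father) and Oct4-EGFP transgenic males on a C57BL/6J background, a cross that the labels give as C57BL/6 male X F1 female, and were dissected into extraembryonic ectoderm (Exe) and epiblast (Epi) at E6.5 and E7.5. Besides control there were Dnmt1-KO and Dnmt3a/3b-DKO embryos, and Dnmt-null embryos, in which Dnmt1, Dnmt3a and Dnmt3b were all targeted. The mutations were made by base editing in the zygote, so each embryo is a founder and not the offspring of a mutant line. Each of the 16 groups had 4 libraries, apart from 3 in E7.5 Epi Control and 3 in E7.5 Epi Dnmt-null, 62 in all. Androgenetic haploid embryonic stem cells (AG-haESCs, strain C57BL/6), which carry a sperm genome and were cultured with the 2i inhibitors and Lif, were WT (3 libraries), O48 (3) or Mir-6KO (2), and 3 libraries of a line called 408 could not be given a group. By the methods, plasmids for miRNA deletion were transfected into O48 and derived lines were grown from single cells. The study describes these deletions as made in DKO cells, which lack the H19 and IG imprinting control regions, so O48 is probably not an unmodified line, but the labels do not say so. Semi-cloned (SC) embryos were made by injecting such cells into oocytes in place of sperm. Their labels name no dissected tissue, whereas the study describes those of E6.5 as epiblast. At E6.5 they were WT, Dnmt-null, DKO (from DKO cells) or DKO;Dnmt-null, and at E7.5 Control or Mir-6KO;Dnmt-null, with 3 libraries each. By the study's account the E7.5 Control embryos were also made from DKO cells and are no wild type.

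RefSeq gave the mature sequences of 4 of the 5 members. They are shown because the seed, in capitals (bases 2 to 8), divides the family into strands with different targets. In natural embryos, the strand that dominated was not one with the family's usual seed.
miR-34a-5p: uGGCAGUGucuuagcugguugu
miR-34b-5p: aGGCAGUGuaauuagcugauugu
miR-34b-3p: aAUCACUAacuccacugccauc
miR-34c-3p: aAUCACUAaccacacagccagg
The 3p strands of miR-34b and miR-34c have a seed of their own, which no other mature miRNA of the RefSeq table holds, and they are identical at 17 of 22 positions. The seed GGCAGUG of the 5p strands is shared with miR-449a-5p and miR-449c-5p.
miR-449a-5p: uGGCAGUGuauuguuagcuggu
miR-449c-5p: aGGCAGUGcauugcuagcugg
In GRCm38, the build the authors aligned to, the Mir34a hairpin lies at chr4:150068454-150068555 on the plus strand, where its last bases overlap an unconfirmed transcript, Gm37795, in the GENCODE annotation. Mir34b at chr9:51103562-51103645 and Mir34c at chr9:51103034-51103110 lie on the minus strand, within the span of Btg4, which is transcribed from the other strand, and outside its exons.

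Library totals ran from 45242 to 26970637 counts, and a count of 3, taken as the limit of detection, corresponds to 66.3 CPM (counts per 1000000 of the library total) in the smallest library and to 0.111 CPM in the largest. The limit covers counting error only, since PCR reads without molecular identifiers are not independent molecules. As a check of the tissue labels, the summed level of 5 strands of the miR-302 cluster, which mark epiblast, was 130389 to 200354 CPM in E6.5 Epi Control against 17588 to 30822 CPM in E6.5 Exe Control, and 202279 to 212606 against 33368 to 45944 CPM at E7.5. Several libraries went against their labels or stood apart. The 2 libraries labelled AG-haESC Mir-6KO held 239331 and 268002 CPM of these epiblast markers, against 924 to 3914 CPM in the WT and O48 cells, and they held more mmu-miR-127-3p, which the study lists among the deleted miRNAs, than any WT or O48 library (35728 and 44853 CPM against at most 12811 CPM). Replicate 3 of the E6.5 SC WT embryos held 21252 CPM of the epiblast markers, whereas replicates 1 and 2 held 214514 and 195381 CPM. Replicate 4 of E6.5 Exe Dnmt1-KO held 7371 CPM of blood and endothelium markers and 2533 CPM of mesenchyme markers, against 320 to 740.2 CPM and 92.1 to 265 CPM in the other 3 libraries of its group.

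Over all natural embryos, the family had 10618 counts, of which miR-34b-3p held 80.6%, miR-34c-3p 9.63%, miR-34c-5p 9.25%, miR-34a-5p 0.518% and miR-34b-5p 0.0377%. The strand with the usual family seed was thus the rarer one from Mir34b. In each of the 39 natural libraries with at least 10 counts from this hairpin, 3p exceeded 5p. The hairpin of Mir34c behaved differently, with 3p ahead in 15 and 5p ahead in 14 of 29 natural libraries that reached 10 counts. In WT AG-haESCs, miR-34c-5p held 78.4% of the family's counts, in O48 cells miR-34a-5p held 54.5%, and in E6.5 SC embryos miR-34c-5p held 53.1% (WT) to 71.8% (DKO). The deposited table counts reads by annotated strand, and each share is of summed counts, to which deeper libraries contribute more.

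**Figure D1:**
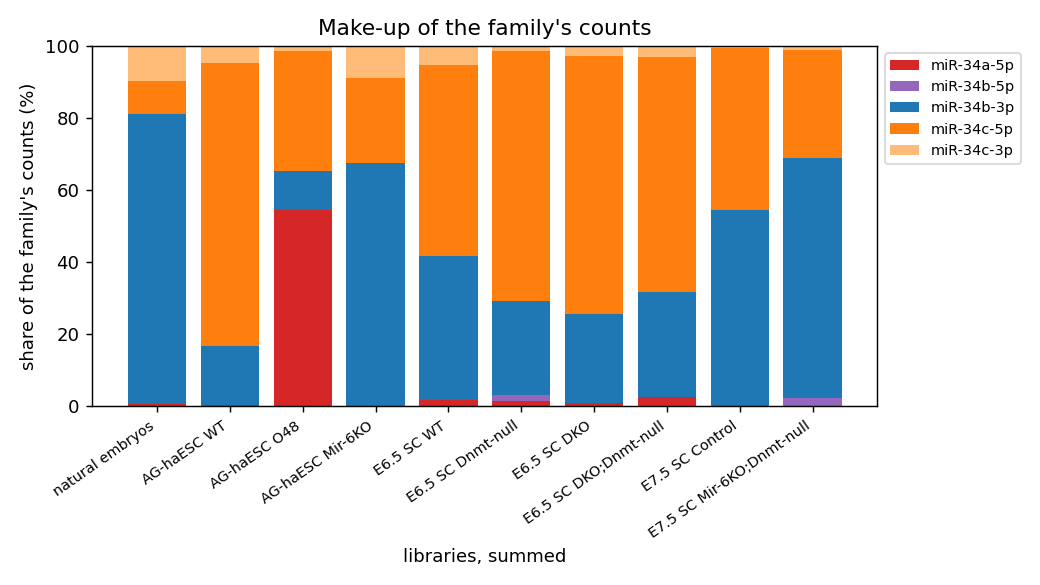
Share of the summed counts of the 5 members (y axis, percent) in natural embryos and in each group of AG-haESCs and SC embryos (x axis). miR-34b-3p makes up 80.6% in natural embryos, miR-34c-5p 78.4% in WT AG-haESCs and miR-34a-5p 54.5% in O48 AG-haESCs.

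miR-34b-3p was highest in epiblast at E7.5. Its level was 381, 307 and 525 CPM in E7.5 Epi Control, and 20.96, 88.9, 40.2 and 37.1 CPM in E6.5 Epi Control. The groups did not overlap. The fitted log2 fold change from E6.5 to E7.5 was 3.15 ± 0.59 (SE), 8.91-fold, with an adjusted p of 4.6e-04 (edgeR's quasi-likelihood test, Benjamini-Hochberg over all miRNAs tested), where 35.3% of all miRNAs tested passed the threshold of the study, an absolute log2 fold change over 0.5 with an unadjusted p under 0.05. In E7.5 Exe Control the level was 68.4, 77.04, 127 and 96.1 CPM. All 3 epiblast libraries lay above these, with a log2 fold change of Epi over Exe of 2.23 ± 0.57 (SE) and an adjusted p of 0.00448, in a comparison in which 40.5% of miRNAs passed. At E6.5 the tissues overlapped, with 91.3, 14.4, 19.8 and 44.7 CPM in Exe Control and a log2 difference of 0.34 ± 0.61 (39.6% of miRNAs passed, but none of the 3 members tested). In Exe, miR-34b-3p rose from E6.5 to E7.5 by 1.26 ± 0.60 on the log2 scale, with an unadjusted p of 0.0493 and an adjusted p of 0.187 (25.3% passed), and this call was lost under 7 of 9 alternative settings. Cell type markers moved too. The 4 mesenchyme markers, for example, summed to 232 to 396 CPM in E7.5 Epi Control, 264 to 862 CPM in E7.5 Exe Control and 55.9 to 107 CPM in E6.5 Epi Control. Their part in the result was not tested, and in bulk tissue fewer cells of a type and less RNA per cell cannot be told apart.

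E7.5 Epi also had the highest group mean within each mutant genotype, while the order of the other 3 groups varied. These comparisons were added after the control result was known. In E7.5 Epi, Dnmt1-KO held 541, 221, 398 and 509 CPM and Dnmt3a/3b-DKO held 289, 420.4, 359.9 and 407 CPM of miR-34b-3p. All 14 E7.5 Epi libraries lay between 142.8 and 541 CPM with a median of 370.4 CPM, and the 48 libraries of the other 12 groups lay between 0 and 200.1 CPM with a median of 45.4 CPM. Epi exceeded Exe at E7.5 without overlap in Dnmt1-KO (log2 1.999 ± 0.87, adjusted p = 0.103, 34.2% of miRNAs passed), Dnmt3a/3b-DKO (1.57 ± 0.61, adjusted p = 0.0614, 37.5% passed) and Dnmt-null (2.61 ± 1.19, adjusted p = 0.133, 31.7% passed). All 3 passed the unadjusted threshold and none the adjusted one, and each was lost when single libraries were left out, 4 of 16 in Dnmt1-KO, 1 of 16 in Dnmt3a/3b-DKO (Exe replicate 3) and 5 of 15 in Dnmt-null. The call in Dnmt3a/3b-DKO was also lost in one model of all natural libraries, and those in Dnmt1-KO and Dnmt-null with the replicate number as a block. From E6.5 to E7.5, Epi levels rose in Dnmt3a/3b-DKO (3.51 ± 0.70, adjusted p = 0.00253, 15.3% passed) and Dnmt-null (2.93 ± 1.28, adjusted p = 0.444, 8.25% passed), and in Dnmt1-KO the difference of 1.77 ± 0.87 missed the threshold with an unadjusted p of 0.0562 (16% passed). In Dnmt-null only 1 of the 4 E6.5 libraries had any count, leaving out 1 library gave log2 values from 2.48 to 8.99, and the call was lost without E6.5 replicate 1, 3 or 4 or E7.5 replicate 1.

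**Figure D2:**
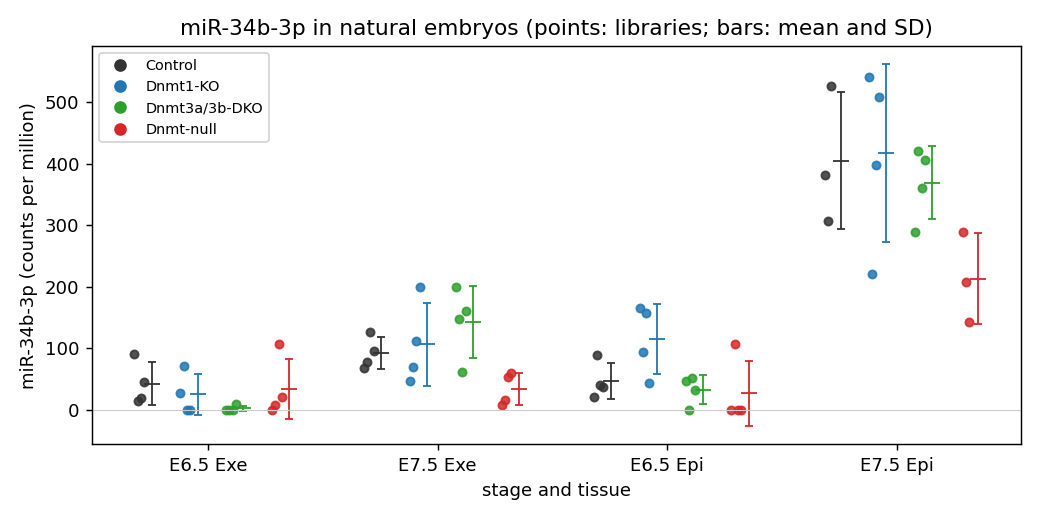
Level of miR-34b-3p (y axis, CPM) in natural embryos by stage and tissue (x axis) and genotype (colour); points are libraries, bars the mean and SD. The E7.5 Epi libraries lie between 142.8 and 541 CPM and those of the other groups between 0 and 200.1 CPM, and within E7.5 Epi the Dnmt-null libraries are the lowest group.

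The loss of all 3 methyltransferases went with less miR-34b-3p in natural epiblast at E7.5. In E7.5 Epi Dnmt-null the level was 289.5, 207 and 142.8 CPM, with a mean of 213 ± 73.6 (SD, n = 3), against 404 ± 111 (SD, n = 3) in control. The groups did not overlap. The log2 fold change was -1.17 ± 0.35 (SE), 0.445-fold, with an adjusted p of 0.0152, beside a median of -0.19 over all 652 miRNAs tested, of which 40.5% passed in this comparison. Of the 3 members tested, 1 passed, a share near that background. A single model of all natural embryo libraries gave a log2 fold change of -1.23, but an unadjusted p of 0.201. The Dnmt-null libraries had 272867 to 488108 counts and the controls 1623256 to 2325698, and other marker groups moved with genotype too. The epiblast markers summed to 105333 to 164935 CPM in Dnmt-null and 202279 to 212606 CPM in control, and the 4 mesenchyme markers, of which 1 was at 0 throughout each group, to 7.33 to 61.5 CPM and 232 to 396 CPM. Their part in the result was not tested.

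Loss of Dnmt1 alone or of Dnmt3a and Dnmt3b together went with differences smaller than the spread between libraries. The log2 fold change of miR-34b-3p in E7.5 Epi was -0.15 ± 0.31 (SE) in Dnmt1-KO (adjusted p = 0.797, 25% of miRNAs passed) and -0.23 ± 0.31 in Dnmt3a/3b-DKO (adjusted p = 0.802, 17.8% passed). Against these genotypes, Dnmt-null embryos were also lower. On the log2 scale this was -1.02 ± 0.33 for Dnmt1-KO (adjusted p = 0.0589, 20.1% passed) and -0.94 ± 0.33 for Dnmt3a/3b-DKO (adjusted p = 0.0631, 21.3% passed), both past the unadjusted threshold only and with overlapping groups. Both were lost in one model of all natural libraries, and that against Dnmt3a/3b-DKO also without Dnmt-null replicate 3. These comparisons share the Dnmt-null libraries and are not independent.

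In E7.5 Exe, the Dnmt-null libraries held 7.51, 16.02, 54.0 and 59.4 CPM of miR-34b-3p, all below the lowest control library (68.4 CPM). The log2 fold change was -1.29 ± 0.64 (SE) with an unadjusted p of 0.0566 and an adjusted p of 0.254, which missed the threshold that 19.4% of miRNAs passed. It passed with DESeq2, with the library total as the only scaling and with the replicate number as a block. It also passed without Dnmt-null replicate 3 or 4 or Dnmt1-KO replicate 1 or 2. Markers moved with it. Blood and endothelium markers summed to 292.8 and 364 CPM in replicates 1 and 2, the lowest in miR-34b-3p, to 2421 and 1198 CPM in replicates 3 and 4, and to 1487 to 3292 CPM in control. Epiblast markers summed to 17252 to 27413 CPM against 33368 to 45944 CPM, and endoderm markers to 7253, 7295, 5850.3 and 1459 CPM against 2845 to 4319 CPM. Their part in the difference was not tested. The Dnmt1-KO libraries held 46.0, 69.6, 112 and 198.8 CPM (0.23 ± 0.62, 16.8% of miRNAs passed) and the Dnmt3a/3b-DKO libraries 200.1, 147, 61.0 and 161 CPM (0.58 ± 0.62, 8.21% passed), neither of them past the threshold. Dnmt-null passed the unadjusted threshold against Dnmt1-KO (log2 -1.52 ± 0.64, adjusted p = 0.260, 14.9% passed) and Dnmt3a/3b-DKO (-1.87 ± 0.64, adjusted p = 0.144, 9.55% passed). The groups overlapped for Dnmt1-KO, and that call was lost with the 2 compared groups alone, in one model of all natural libraries, and without Dnmt-null replicate 1 or 2 or Dnmt1-KO replicate 4. The Dnmt-null effect did not differ detectably between Epi and Exe at E7.5, where the difference of the log2 fold changes was 0.09 ± 1.204 (adjusted p = 0.9998), nor did any of the 10 such differences estimated between tissues or stages reach an unadjusted p under 0.273.

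**Figure D3:**
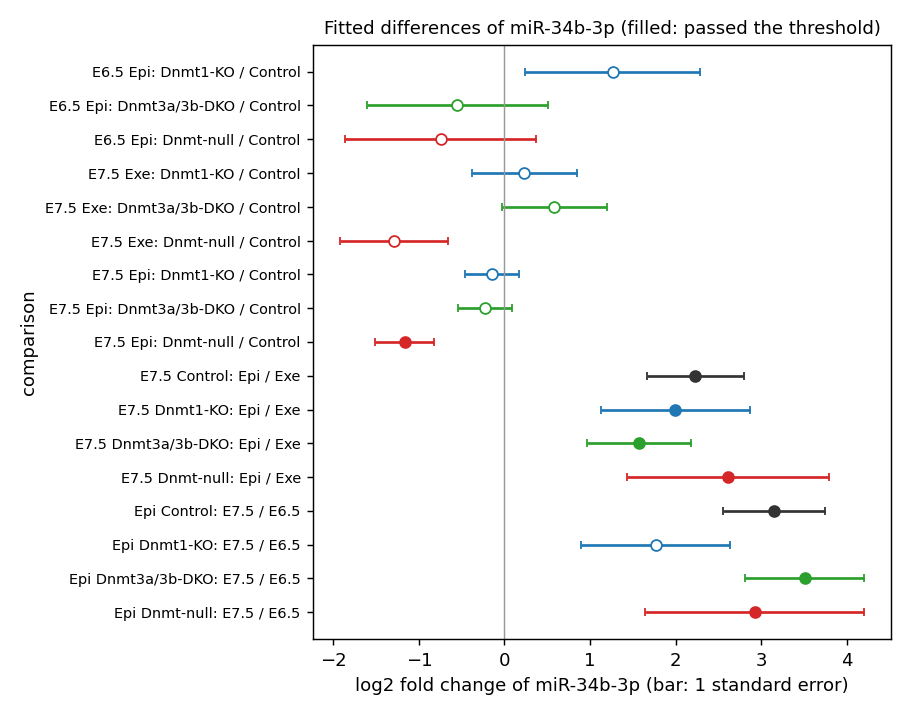
Fitted log2 fold change of miR-34b-3p (x axis, bars 1 SE) in comparisons of mutant with control, of Epi with Exe at E7.5, and of E7.5 with E6.5 in Epi (y axis); filled points passed the threshold of the study. In E7.5 Epi, Dnmt-null lies at -1.17, in E7.5 Exe at -1.29, and the tissue and stage differences lie between 1.57 and 3.51.

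At E6.5 few counts remained. In E6.5 Epi, miR-34b-3p held 165, 93.7, 157 and 43.8 CPM in Dnmt1-KO, 47.2, 0, 51.6 and 31.9 CPM in Dnmt3a/3b-DKO, and 0, 106, 0 and 0 CPM in Dnmt-null. The log2 fold changes against control were 1.26 ± 1.02 (12% of miRNAs passed), -0.55 ± 1.05 (14.9% passed) and -0.75 ± 1.12 (25.9% passed), and those of Dnmt-null were -2.01 ± 1.12 against Dnmt1-KO (18.1% passed) and -0.20 ± 1.16 against Dnmt3a/3b-DKO (15.6% passed). None passed. The 3 libraries of E6.5 Epi Dnmt-null at 0 allow up to 66.3, 45.0 and 24.4 CPM at their depth, each within the range of control. No single 1 of them therefore shows a fall. Without replicate 2, at 106 CPM, the log2 fold change against control was -6.62 and passed the unadjusted threshold. All Dnmt-null libraries were then at 0, so this value gives no size, and the result turned on 1 library. In E6.5 Exe no member passed the count filter, and 8.78% (Dnmt1-KO), 9.04% (Dnmt3a/3b-DKO) and 13% (Dnmt-null) of the 376 other miRNAs passed against control, 3.72% and 1.6% for Dnmt-null against the other 2 mutants. Between tissues at E6.5, miR-34b-3p was higher in Epi in Dnmt1-KO by the unadjusted test (log2 2.17 ± 0.91, adjusted p = 0.085, 35.3% of miRNAs passed). This was lost without Exe replicate 4, whose markers stood apart (log2 1.78), and without any 1 of 4 other libraries. In Dnmt3a/3b-DKO it passed (adjusted p = 0.0126, 40.2% passed), but no fold is given, since the Exe libraries held at most 2 counts and their limits of 12.9 to 26.2 CPM lie close to the Epi values. In Dnmt-null the log2 difference was -0.10 ± 1.35 (35.8% passed). Between stages in Exe, the log2 difference in Dnmt1-KO was 1.94 ± 0.90 (adjusted p = 0.165, 27% passed), a call kept in 3 of 16 fits without 1 library and under 5 of 9 alternative settings. In Dnmt3a/3b-DKO, where no E6.5 library had more than 2 counts, E7.5 was at least 7.56-fold higher (22% passed), and in Dnmt-null the difference was 0.21 ± 1.197 (9.79% passed).

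The 2 strands of miR-34c, the partner of miR-34b on the shared transcript, were less abundant and showed the epiblast pattern in part. miR-34c-3p held 45.6, 30.9 and 86.9 CPM in E7.5 Epi Control, above all 4 libraries of E7.5 Exe Control (5.003, 0, 10.6 and 0 CPM) and of E6.5 Epi Control (0, 0, 8.94 and 13.1 CPM). Its log2 fold change was 3.76 ± 1.39 (SE) for Epi over Exe at E7.5 (adjusted p = 0.0487) and 3.19 ± 1.40 for E7.5 over E6.5 in Epi (adjusted p = 0.108). The second call was lost with DESeq2, in one model of all natural libraries, and without E6.5 replicate 1, 2 or 3 or E7.5 replicate 1 or 3. miR-34c-5p held 33.97, 24.5 and 58.5 CPM in E7.5 Epi Control and 31.7, 1.17, 20.3 and 46.1 CPM in E7.5 Exe Control, so that the control tissues overlapped (0.76 ± 1.13, adjusted p = 0.697).

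In the mutants, miR-34c-5p was higher in Epi than in Exe at E7.5 without overlap in Dnmt1-KO, with 15.5, 35.1, 86.6 and 88.4 CPM against 4.09, 1.48, 11.2 and 10.6 CPM (log2 3.01 ± 1.21, adjusted p = 0.0741), and in Dnmt3a/3b-DKO, with 38.5, 36.0, 42.4 and 29.1 CPM against 6.04, 6.41, 2.29 and 10.4 CPM (2.67 ± 0.99, adjusted p = 0.0564). At E6.5 it was detected in all 4 Dnmt1-KO Epi libraries (23.3, 36.5, 32.7 and 39.8 CPM). No Dnmt1-KO Exe library exceeded 1 count, where the limits are 8.28, 7.17, 10.2 and 25.4 CPM. By group means Epi was at least 2.59-fold higher. The limit of Exe replicate 4, whose markers stood apart, lies above the lowest Epi value. In Dnmt3a/3b-DKO both strands were at 0 in every E6.5 Exe library, which allows 12.9 to 26.2 CPM. Against these, miR-34c-5p (14.1, 28.2, 0 and 31.9 CPM) and miR-34c-3p (14.1, 146.4, 0 and 0 CPM) of E6.5 Epi and miR-34c-5p of E7.5 Exe passed the unadjusted test. No difference is read from them, since most of these values lie near or below that limit, and the miR-34c-3p call was lost without the library at 146.4 CPM. No comparison of a mutant with control passed for either strand. In E7.5 Epi Dnmt-null, miR-34c-5p held 44.0, 38.9 and 17.8 CPM (-0.46 ± 0.68, adjusted p = 0.659) and miR-34c-3p held 73.3, 57.4 and 0 CPM (-0.58 ± 0.86, adjusted p = 0.665), both overlapping control.

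**Figure D4:**
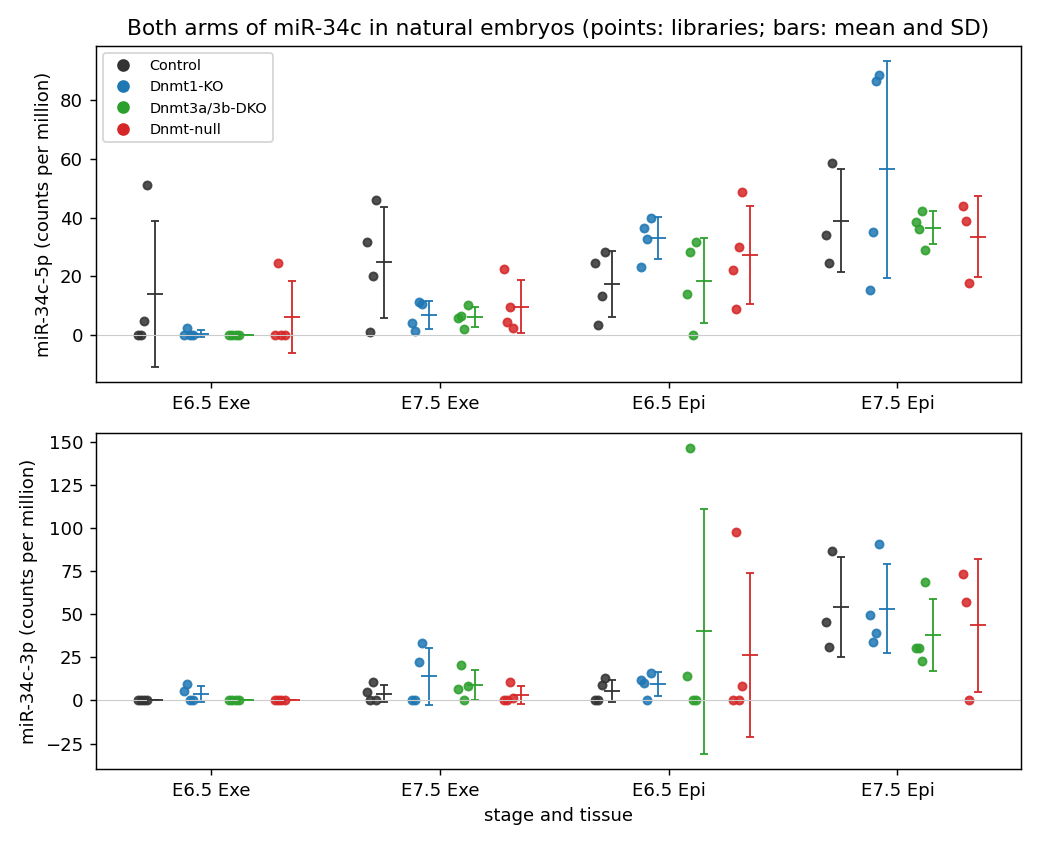
Levels of miR-34c-5p (top) and miR-34c-3p (bottom) (y axes, CPM) in natural embryos by stage and tissue (x axis) and genotype (colour); points are libraries, bars the mean and SD. miR-34c-3p lies between 30.9 and 86.9 CPM in E7.5 Epi Control and at most 10.6 CPM in E7.5 Exe Control.

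miR-34a-5p, the founding member and the one most often tied to p53, was near or below the limit of detection in natural embryos. It had a count in 13 of 62 libraries and more than 3 counts in 5, with a total of 55. The largest count was 19 (22.6 CPM), in 1 library of E7.5 Exe Dnmt-null, while the other 3 libraries of that group were at 0, and the highest level was 63.2 CPM, from 6 counts in 1 library of E6.5 Exe Dnmt-null. miR-34b-5p had a count in 2 natural libraries, at most 3. For members under the count filter, 121 exact two-sided permutation tests on log2 CPM were run. With 3 against 3 libraries no p under 0.1 is possible, and many tests set 0 against 0 counts. With 4 against 4, 1 low p alone cannot pass adjustment over 121 tests. The tests therefore do not show that differences are absent. Of the 121, 1 fell under 0.05. It was miR-34b-3p in E6.5 Exe, lower in Dnmt3a/3b-DKO (0, 0, 0 and 8.60 CPM) than in control, with an exact permutation p of 0.0286, the smallest that 4 against 4 libraries can give, and an adjusted p of 1.

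In AG-haESCs, miR-34a-5p exceeded 3 counts in O48 cells and in no WT library. O48 cells held 226, 118 and 327 counts (37.2, 19.3 and 70.1 CPM), whereas WT cells held 1, 0 and 0, and the libraries labelled Mir-6KO held none. O48 was at least 61.8-fold higher than WT when WT is set to 3 counts per library, and passed with an adjusted p of 0.00274, beside 20.7% of the 773 miRNAs tested. The other strand of this hairpin, miR-34a-3p, had 8, 26 and 18 counts in O48 and none in WT. The remaining members tested overlapped between O48 and WT. miR-34c-5p held 32.7, 13.1 and 27.7 CPM in O48 and 34.7, 32.9 and 26.2 CPM in WT (log2 -0.32 ± 0.54, adjusted p = 0.858), and miR-34b-3p 18.1, 0 and 5.15 CPM against 5.31, 8.97 and 5.24 CPM (0.29 ± 1.25, adjusted p = 0.974). Since O48 and WT were 1 line each, line and genotype cannot be told apart.

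The libraries labelled AG-haESC Mir-6KO differed from O48 in 3 of 4 members tested, where 59% of all miRNAs passed. miR-34b-3p held 141.7 and 222 CPM (log2 4.05 ± 1.44, adjusted p = 0.0464) and miR-34c-3p 22.8 and 22.1 CPM against at most 1.97 CPM (3.86 ± 1.34, adjusted p = 0.0428), while miR-34a-5p was at least 158-fold lower. Leaving out O48 replicate 3 left 1 call. The calls of miR-34b-3p and miR-34c-3p were also lost with the replicate number as a block, and that of miR-34b-3p with the 2 compared groups alone. The epiblast markers of these libraries, given above, stood at the level of embryos, and what part this has in the differences was not tested.

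**Figure D5:**
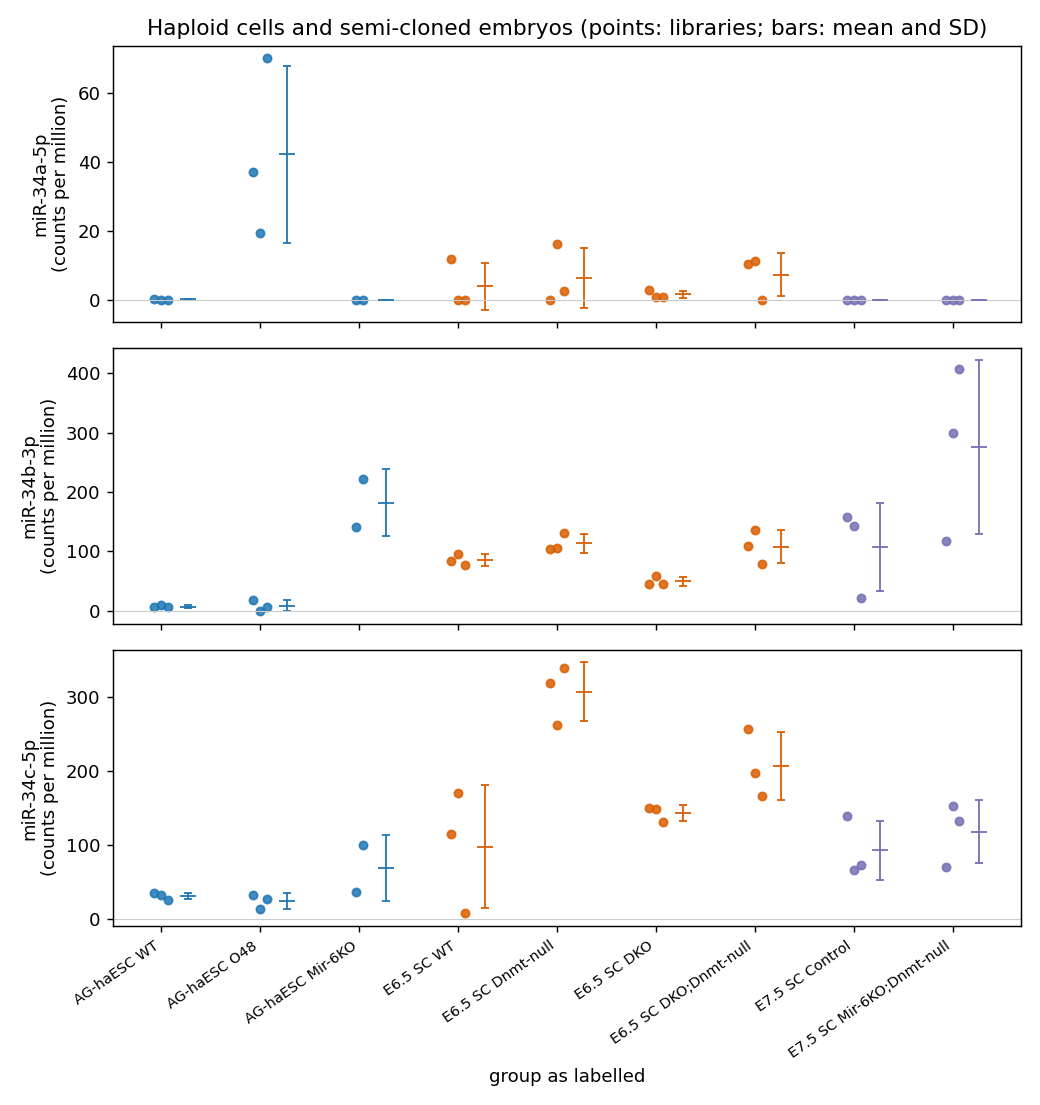
Levels of miR-34a-5p (top), miR-34b-3p (middle) and miR-34c-5p (bottom) (y axes, CPM) in AG-haESCs and SC embryos by group as labelled (x axis); points are libraries, bars the mean and SD. miR-34a-5p lies between 19.3 and 70.1 CPM in O48 cells and at or below 16.1 CPM elsewhere, and miR-34c-5p lies between 262 and 339 CPM in E6.5 SC Dnmt-null.

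In SC embryos at E6.5, miR-34c-5p was the most abundant member. It held 318, 262 and 339 CPM in Dnmt-null, above WT (115, 170.4 and 7.74 CPM). The log2 fold change was 1.47 ± 0.63 (SE), with an unadjusted p of 0.0409 and an adjusted p of 0.251, where 18.9% of miRNAs passed. Without WT replicate 3, the library with few epiblast markers, it was 0.88 and still passed, but the call was kept in only 3 of 9 fits without 1 library. It was lost without WT replicate 1, Dnmt-null replicate 1 or 3 or any DKO replicate, and with the 2 compared groups alone. Endoderm markers summed to 3168 to 4472 CPM in Dnmt-null and 1780 to 2296 CPM in WT, and mesenchyme markers to 165 to 205 and 90.0 to 112 CPM. Epiblast markers summed to 82565 to 122808 CPM in Dnmt-null, below WT replicates 1 and 2 (214514 and 195381 CPM) and above replicate 3 (21252 CPM). Their part in the difference was not tested. miR-34b-3p held 104, 105 and 131 CPM in Dnmt-null, above 82.8, 95.7 and 77.4 CPM in WT, but the log2 fold change of 0.14 ± 0.36 missed the threshold. In DKO it was lower, at 44.6, 58.5 and 44.5 CPM, with a log2 fold change against WT of -0.96 ± 0.35 and an adjusted p of 0.280 (13% of miRNAs passed), and without WT replicate 3 it was -0.86. This call was lost without DKO replicate 1 or 3, and without a filter on low counts. Replicate numbers paired these groups, with correlations of 0.17 to 0.285 in the 3 pairs. With the replicate number as a block the call was lost too. miR-34c-5p in DKO held 150.2, 149 and 131 CPM, which overlapped WT.

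On the DKO background, Dnmt-null embryos held more miR-34b-3p, at 108, 135 and 79.2 CPM. The log2 fold change against DKO was 0.996 ± 0.24 (SE), 1.99-fold, with an adjusted p of 0.00296, beside 31% of miRNAs passing. Epiblast markers summed to 130119 to 147052 CPM in DKO;Dnmt-null and 177971 to 196784 CPM in DKO, and endoderm markers to 2286 to 3357 CPM and 1555 to 1914 CPM, both without overlap, and their part in the difference was not tested. miR-34c-5p was also above DKO in every library (257, 198 and 167 CPM), with a log2 fold change of 0.48 ± 0.17 and an adjusted p of 0.0321, just under the fold threshold. miR-34c-3p held 9.51, 11.3 and 25.0 CPM against 9.30, 1.28 and 5.77 CPM (1.17 ± 0.75, adjusted p = 0.254). The DKO;Dnmt-null libraries were deposited in a table of 895 miRNAs, had 1366522, 177142 and 239996 counts against 2150520 to 2425038 in DKO, and genotype and table cannot be told apart. At E7.5, miR-34b-3p held 118, 300.02 and 408 CPM in Mir-6KO;Dnmt-null and 158, 142.2 and 21.3 CPM in Control (1.19 ± 0.74, adjusted p = 0.714). miR-34c-5p held 70.1, 152 and 132 CPM against 139, 66.5 and 72.7 CPM (0.16 ± 0.52). No member passed there, and 10.8% of miRNAs did.

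The miRNAs that share the 5p seed were also scarce in natural embryos. miR-449a-5p and miR-449c-5p, known from multiciliated cells and the male germline, passed the count filter in no comparison of natural embryos or AG-haESCs, and miR-449b was not found under that name. In E6.5 SC embryos miR-449a-5p and miR-449c-5p summed to 51.9, 4.03 and 19.8 CPM in Dnmt-null and to 2.96, 22.97 and 0 CPM in WT. In E6.5 SC DKO embryos mmu-miR-449a-5p held 6.98, 11.96 and 11.96 CPM, and in DKO;Dnmt-null embryos 1.46, 0 and 12.5 CPM (log2 -1.83 ± 0.87, adjusted p = 0.112). The limits of DKO;Dnmt-null replicates 2 and 3, 16.9 and 12.5 CPM, lie above each DKO value, so these replicates cannot show a fall.

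Of 9 other miRNAs that p53 is known to induce or help process, all were tested at E7.5. In E7.5 Epi Dnmt-null, 2 rose and 4 fell, with a median log2 fold change of -0.78, where 40.5% of all miRNAs passed. In E7.5 Exe Dnmt-null 1 rose and 2 fell, with a median of -0.49, where 19.4% passed. In E6.5 Epi Dnmt-null, 2 of the 6 tested fell and none rose, where 25.9% passed. The epithelial miR-200c-3p passed in 7 of its 12 comparisons of mutant with control, lower in each, with means of 3870 CPM in E6.5 Epi Dnmt-null and 6276 CPM in control (-0.83 ± 0.25, adjusted p = 0.0287). miR-192-5p, an endoderm and liver miRNA, rose in E7.5 Epi Dnmt-null (1.07 ± 0.33, adjusted p = 0.0183), and miR-16-5p, which targets cyclins, fell (-0.78 ± 0.16, adjusted p = 0.00123). miR-215-5p was at 0 in every E7.5 Epi Control library and had a mean of 31.3 CPM in Dnmt-null.

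Of 8 other miRNAs known to be silenced by methylation in tumours, 7 were tested in E7.5 Epi Dnmt-null, where 2 rose and 2 fell (40.5% of all miRNAs passed), and 7 in E6.5 Epi Dnmt-null, where 3 rose (25.9% passed). In E7.5 Exe Dnmt-null 1 of 7 rose (19.4% passed). miR-127-3p, from the imprinted Dlk1-Dio3 locus, passed in 7 of 12 comparisons of mutant with control, with means of 73668 CPM in E6.5 Epi Dnmt-null and 26252 CPM in control (1.36 ± 0.20, adjusted p = 8.71e-05). miR-375-3p, which is rich in endocrine cells, rose in E6.5 Epi Dnmt-null (3.15 ± 0.86, adjusted p = 0.0167) and fell in E7.5 Epi Dnmt-null (-1.74 ± 0.43, adjusted p = 0.00518). miR-203-3p, an epidermal miRNA, rose in E6.5 Epi Dnmt-null (2.73 ± 0.81, adjusted p = 0.0279), and its log2 fold change at E7.5 was -0.27 ± 1.38.

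The miRNAs whose mean log2 level over the 16 natural groups was most like that of miR-34b-3p, by Spearman's rho among 658 miRNAs, were miR-412-3p (0.882), miR-708-3p (0.882), miR-450a-5p (0.859), miR-151-5p (0.856) and miR-7667-5p (0.856). For miR-34c-5p they were miR-758-5p (0.932), miR-1934-5p (0.924), miR-5113 (0.915), miR-325-3p (0.909) and miR-204-5p (0.903). The groups share tissue, stage and depth, so the values describe these 16 points only.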

How the data were processed

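Counts of 91 CAS-seq libraries were used. According to the methods, adapters were removed by the authors (fastp 0.20.1), reads were placed on GRCm38 (Bowtie 1.2.1.1) and then on the mature miRNAs of miRBase, with some tolerance in the 3′ end, and the deposited values are raw counts per mature miRNA, without normalization. CPM here is the count per 1000000 of the library's total. An earlier copy of the table was not used. Groups were compared with edgeR 4.0.16 in R 4.3.3 (quasi-likelihood test, TMM, filterByExpr with a count minimum of 10), with all genotypes of a tissue and stage, or all tissues and stages of a genotype, in 1 model. To pass, a miRNA needed an absolute log2 fold change over 0.5 and an unadjusted p under 0.05, the study's thresholds, and Benjamini-Hochberg adjusted p-values are given beside. The SE was derived from the F statistic. Members under the filter were compared by exact permutation of mean log2 CPM (prior count 2). A group with at most 3 counts in every library was set to 3 counts per library for fold bounds. The likeness rule named the 5 highest correlations for the 2 members of highest mean CPM over the natural embryos. The members and lists were chosen with earlier results of these data known. The tissue and stage comparisons within mutants, and Mir-6KO against O48, were added after seeing the data. All members were named, and from each list up to 4 miRNAs called most often in mutants against control. Nothing in the labels says that libraries came from separate embryos or cultures, so p-values may measure technical spread. The closest of 115 replicate pairs had a chi-square of 4.20 per degree of freedom, so none was a copy. Numbers paired libraries (every pair's correlation over 0.1) in 2 of 42 comparisons, E6.5 Epi Dnmt-null against Control and E6.5 SC DKO against WT. Alternatives were DESeq2 1.42.0, RLE or no factors, other filters, other models, adjusted p-values, the replicate block, and every library left out in turn. The procedure was tested on simulated data.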

Additional observations from a re-analysis of the deposited data

Results flagged for a closer look

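In natural embryos, 18 sets of 4 libraries, each a member that passed the count filter in 1 group, were examined for a library far from the rest, which chance gives in about 1 in 20 sets. In E6.5 Epi Dnmt-null, 1 library held 106 CPM of miR-34b-3p while the other 3 were at 0. The limits of these 3 are 66.3, 45.0 and 24.4 CPM, and 3 equal values make any other value stand apart. In E7.5 Epi Dnmt3a/3b-DKO, 1 library held 69.0 CPM of miR-34c-3p and the others 22.9 to 30.6 CPM.

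The Dnmt-null difference of miR-34b-3p had opposite signs in different embryos. It was -1.17 on the log2 scale in E7.5 Epi, with every Dnmt-null library below every control, and 0.996 in E6.5 SC embryos of the DKO background, with every library above. The other SC comparisons gave 0.14 (E6.5 Dnmt-null against WT) and 1.19 (E7.5 Mir-6KO;Dnmt-null against Control). Natural E7.5 Exe gave -1.29 and natural E6.5 Epi -0.75. None of these passed the threshold. The E7.5 Epi embryos and those of the DKO background differ in stage, in origin and in the table they were deposited in, and the difference was not tested.

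The 3 libraries of the AG-haESC line 408, which enter no comparison, held 54.1, 57.5 and 46.0 CPM of miR-34c-5p and 1.62, 9.95 and 7.09 CPM of miR-34b-3p, each over the limit of 3 counts.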

How the results depend on the processing

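Each member call was recomputed under the alternatives. Adjusted p-values lowered the calls in the 20 genotype comparisons from 5 to 1, in the control tissue and stage comparisons from 5 to 3, in the same comparisons of mutants from 15 to 6, and in E6.5 SC embryos from 2 to 0 (at an unadjusted p, DESeq2 gave 2). Without a filter on low counts they were 10 in the genotype comparisons, 1 in E6.5 SC, 2 in DKO;Dnmt-null against DKO (1 in the main analysis) and 1 in E7.5 SC (0), where more miRNAs are tested. For DKO;Dnmt-null against DKO, the library total alone and a mean of at least 10 counts gave 2. One model of all natural libraries gave 3 calls in the control comparisons, and the 2 compared groups alone gave 1 in E6.5 SC. The cause was not tested. With the replicate number as a block, calls went from 5 to 6 in the genotype comparisons, from 5 to 4 in the control comparisons, from 15 to 13 in mutants (miR-34b-3p lost for Epi over Exe at E7.5 in Dnmt1-KO and Dnmt-null and for E7.5 over E6.5 in Exe of Dnmt1-KO, and 1 other call gained; in the first, the 4 pairs correlated at 0.0532 to 0.241, each best with its own number), from 2 to 1 in E6.5 SC, where miR-34b-3p in DKO against WT was lost (-0.96, unadjusted p = 0.0532), and from 3 to 1 for Mir-6KO against O48. The pairing left the number of calls as it was in O48 against WT, DKO;Dnmt-null against DKO or E7.5 SC.

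Leaving out each library in turn gave 4 to 8 calls in the genotype comparisons (8 without E6.5 Epi Dnmt-null replicate 2), 3 to 5 in the control comparisons (3 without E6.5 Epi Control replicate 3 or E7.5 Epi Control replicate 1 or 3), 0 to 2 in E6.5 SC (0 without DKO replicate 1 or 3), 1 to 3 in DKO;Dnmt-null against DKO (2 without DKO replicate 1 or DKO;Dnmt-null replicate 2, 3 without DKO;Dnmt-null replicate 3), 1 to 4 in Mir-6KO against O48 (1 without O48 replicate 3) and 0 to 2 in the differences of the Dnmt-null effect (2 without E6.5 Epi Dnmt-null replicate 2, 1 without E6.5 Exe Dnmt-null replicate 2). The fall of miR-34b-3p in E7.5 Epi Dnmt-null passed without any 1 of the 14 libraries, from -1.36 to -0.92. Its difference in E7.5 Epi Dnmt1-KO, which never passed, turned to 0.0456 with the library total alone and lay between -0.32 and 0.10 without 1 library, above 0 without Dnmt3a/3b-DKO replicate 1, Dnmt1-KO replicate 2 or Control replicate 3. Leaving out the last turned Dnmt3a/3b-DKO to 0.0264 (lowest value -0.40), and E7.5 Exe Dnmt1-KO lay between -0.23, without its replicate 4, and 0.45. With a prior count of 0.5, 4 of the 5 miRNAs most like miR-34b-3p and 3 of those most like miR-34c-5p were shared. Depth limits E6.5 most, where 3 counts reach 66.3 CPM.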

Other observations

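In the 3 libraries of line 408, miR-34a-5p and miR-34b-5p were at 0, where 3 counts correspond to 0.608 to 0.728 CPM, and miR-34c-3p had 19, 0 and 0 counts. The table of the DKO;Dnmt-null embryos does not list miR-34b-5p. Over the other 88 libraries, miR-34b-5p exceeded 3 counts in 2. The highest was 333 counts (19.8 CPM) in replicate 2 of the E7.5 SC Mir-6KO;Dnmt-null embryos, which also had the highest count of miR-34b-3p of any library (5043). These features were chosen after their values were seen.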
